A study of Homo sapiens with 8 samples.

Results

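MDA-MB-231, a triple-negative human breast cancer line with mesenchymal features, was profiled after knockdown of XBP1 in cells starved of oxygen and glucose together. The knockdown is described here by the 4 MDA-MB-231 arrays, out of 8 arrays in the series. All MDA-MB-231 arrays were taken, chosen by the labelled cell line, and described across 19775 genes. The 2 shXBP1 samples came from cells infected with a virus that carries a short hairpin RNA against XBP1. The 2 shCtrl samples carried a control hairpin instead. Cells of both groups were selected with puromycin at 2 ug/ml and then held for 24 h in 0.1% O2, in DMEM without glucose and with 10% FBS. The other 4 arrays hold the same pair of hairpins in T47D, a luminal, oestrogen receptor-positive line, under the same conditions. Every sample was stressed, so the values show what the hairpin changed within the stress, and untreated cells were not analysed here. How many hairpin sequences were used against XBP1 is not stated in the labels. Replicates are called biological in the labels, without word on separate infections or cultures, so each p-value reflects the scatter among these particular samples, and that scatter may be technical.

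XBP1 acts as a transcription factor in the unfolded protein response, the programme by which cells adjust to misfolded protein in the endoplasmic reticulum (ER). The ER sensor IRE1 splices XBP1 mRNA, and the protein made from the spliced form turns on genes for protein folding, degradation of misfolded protein and secretion. The other arms run through the sensor PERK, which raises translation of ATF4, and through ATF6, which is cut in the Golgi to release a transcription factor. Low oxygen acts mainly through the hypoxia-inducible factors (HIF), and in triple-negative breast cancer XBP1 has been described as a partner of HIF1 at its target genes.

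Each value is a deposited log2 expression level of 1 probe set per gene, so a difference of 1 is a 2-fold change. A change is the shXBP1 mean minus the shCtrl mean, with its limma standard error (SE) and an adjusted p, and a gene is said to have risen or fallen where the adjusted p was under 0.05. The replicate arrays correlated at 0.996 across genes in each MDA-MB-231 group, and arrays of different hairpins at 0.985 to 0.989. Only 43 genes differed by over 2-fold between the shXBP1 replicates and 36 between the shCtrl replicates, against 527 to 722 between arrays of different hairpins. The cell line label was checked against its markers. The mesenchymal filament gene VIM read 14.65 and 14.67 on the shXBP1 arrays, against 14.30 and 14.35 on the shCtrl arrays, the oestrogen receptor gene ESR1 read 4.91 and 4.96 with shXBP1, against 5.09 and 4.82 with shCtrl, and the pan-leukocyte gene PTPRC read 4.01 and 4.18 with shXBP1, against 4.22 and 3.89 with shCtrl. VIM was among the brightest genes and the other pair lay below the median probe set (5.96), in both groups. Of 15 measured mesenchymal markers, 15 with shXBP1 and 13 with shCtrl lay above that median, SPARC and PLAU being the exceptions with shCtrl. Of 19 luminal markers, 10 lay above it in each group, including the keratins KRT8 and KRT18. None of 10 leukocyte markers passed the limma test, with 2.0 at an unadjusted p under 0.05, and of 13 fibroblast markers FAP (1.60) and ACTA2 (0.94) rose. The summed linear level of the leukocyte markers was 596.9 to 605.5 with shXBP1, against 568.7 to 570.8 with shCtrl, and that of the fibroblast markers was 2373 to 2575, against 2162 to 2273. The 3' minus 5' difference of the ACTB control probe sets, a sign of RNA length, was 0.893 and 1.10 with shXBP1, against 1.30 and 1.21 with shCtrl. For the GAPDH control probe sets it was 0.304 and 0.320 with shXBP1, against 0.270 and 0.334 with shCtrl, so the groups overlapped. The part of RNA length in the results was not tested. In these bulk samples, fewer cells of a state and less RNA per cell cannot be told apart.

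XBP1 was the most strongly lowered gene of the comparison. It read 7.13 and 6.69 on the shXBP1 arrays, against 10.83 and 10.69 on the shCtrl arrays, 6.91 ± 0.31 against 10.76 ± 0.10 (SD, n = 2 each). The groups stood far apart and the change was -3.85 (SE 0.17, adjusted p = 6.93e-05), or 14.4-fold lower. The other XBP1 probe set, near the median level of the array, differed by 0.19 and did not pass.

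Across all genes the knockdown changed 3410 of 19775 (17.2%), of which 2090 (10.6%) rose and 1320 (6.68%) fell. At least 2-fold changes were made by 510 genes (2.58%), 374 up and 136 down, and changes of at least 4-fold by 47 genes, of which 41 rose. The median change over all genes was 0.03. The shXBP1 and shCtrl values did not overlap for 10780 genes (54.5%), so non-overlap alone says little here. The share called grew with the level. When the genes were split into 3 equal parts by their mean over the 4 arrays, 4.48% of the dimmest, 17.7% of the middle and 29.6% of the brightest part were called. In the brightest part 16.4% rose and 13.2% fell, against 2.97% and 1.50% in the dimmest. The gene lists below are mostly set against all genes, not against genes of like level, and many of them hold mainly bright genes. A total of 1577 genes were called under every fit that left out 1 MDA-MB-231 array, and these included 474 of the 510 genes past 2-fold. The number called was 2063 without shCtrl replicate 1 and 2152 without shXBP1 replicate 1. It was 1897 when only the 4 MDA-MB-231 arrays entered the fit. The balance of rises and falls depended on the choice of probe set, since 61.3% of the calls were rises with the brightest probe set per gene, and 49.3% when each of 41091 probe sets was tested alone. Among the probe sets that were not the brightest of their gene, falls prevailed, with 1309 higher and 2116 lower (38.2% rises). Of 1283 risen genes with other probe sets, 490 (38.2%) had another called higher and 106 (8.26%) had one called lower. Of 974 such fallen genes, 489 (50.2%) had another called lower and 44 (4.52%) had one called higher.

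**Figure D1:**
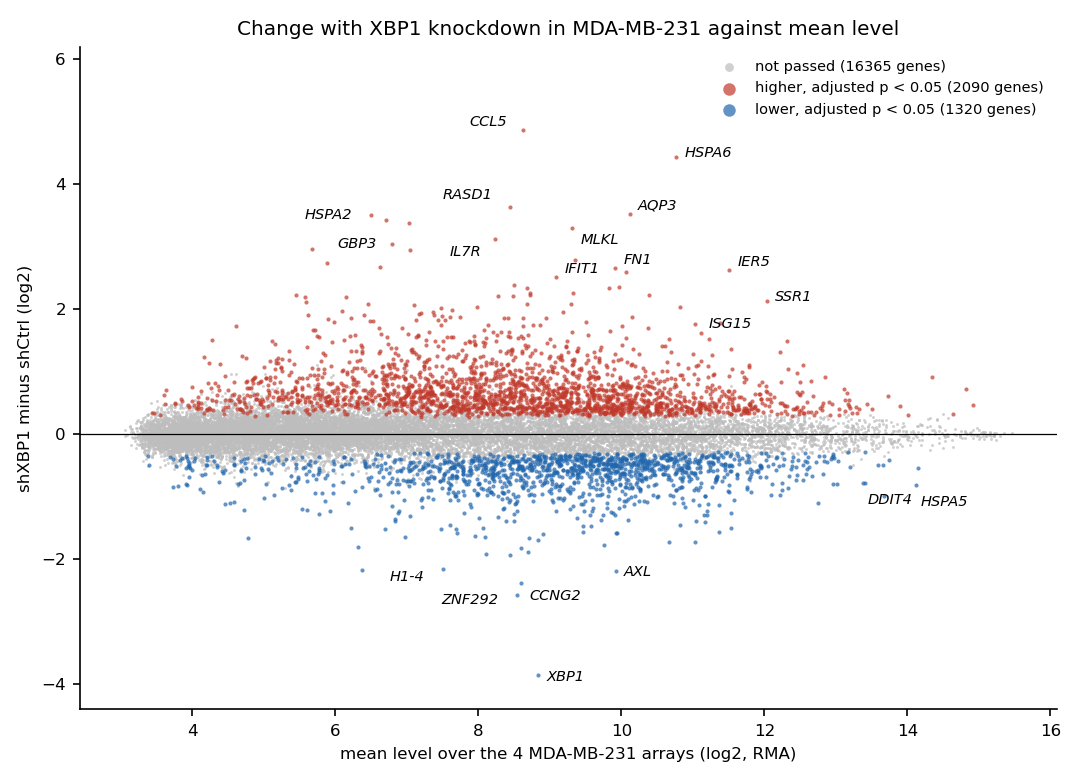
Change in MDA-MB-231 (shXBP1 minus shCtrl, log2, vertical axis) against mean level over the 4 arrays (log2, horizontal axis), 1 point per gene for 19775 genes, coloured by call. Rises reach further than falls, to 4.87 for CCL5, while XBP1 stands alone at -3.85, and calls are sparse at low levels.

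The gene that rose most was CCL5, a chemokine that attracts T cells and monocytes. CCL5 read 11.22 and 10.91 on the shXBP1 arrays, against 6.0 and 6.39 on the shCtrl arrays. The groups were far apart, with the shCtrl arrays near the median probe set, and the change was 4.87 (SE 0.15, adjusted p = 1.92e-05), or 29.2-fold. Its 3 probe sets gave changes of 3.73 to 5.37. HSPA6, a stress-inducible cytosolic HSP70 chaperone, read 13.74 and 12.23 with shXBP1, against 7.96 and 9.12 with shCtrl. Its replicates were the least alike of the leading genes, but the lower shXBP1 array still lay well above the higher shCtrl array, and the change was 4.44 (SE 0.50, adjusted p = 0.00115). HSPA2, another HSP70, was at 8.46 and 8.05 with shXBP1, against 4.60 and 4.89 with shCtrl, and the groups lay far apart against the gap between replicates.

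Other genes past 8-fold encode small GTPases, a membrane channel, a cell death factor, a cytokine receptor and matrix proteins, among others. The small GTPase genes RASD1 and GEM rose by 3.63 (SE 0.18) and 3.39 (SE 0.31). RASD1 read 10.55 and 9.96 with shXBP1, against 6.56 and 6.69 with shCtrl. AQP3, a channel for water and glycerol, read 11.88 and 11.88 with shXBP1, against 8.20 and 8.51 with shCtrl, a change of 3.53 (SE 0.14, adjusted p = 3.63e-05). The shXBP1 arrays were alike and both high, and the other AQP3 probe sets gave smaller rises of 1.83 and 1.59. MLKL, whose protein breaches the plasma membrane in necroptosis, had its only probe set at 11.08 and 10.84 with shXBP1, against 7.67 and 7.64 with shCtrl, a change of 3.30 (SE 0.11, adjusted p = 1.92e-05). The interleukin-7 receptor gene IL7R read 9.80 and 9.79 with shXBP1, against 6.63 and 6.73 with shCtrl, and its probe sets rose by 3.12 and 2.73. MFAP5, a microfibril component of the matrix, rose by 3.43 and the guanylate-binding protein gene GBP3 by 3.05, both from shCtrl levels below the median probe set, where RMA values understate a fold.

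The remaining members of the 20 largest rises were ADRB1 (2.97), the beta-1 adrenergic receptor, ANKRD1 (2.95), a muscle and YAP-responsive ankyrin repeat protein, MGP (2.79), an inhibitor of calcification, NANOS1 (2.74), an RNA-binding protein, SAMD9 (2.67), an antiviral factor, FN1 (2.66), the matrix protein fibronectin, IER5 (2.63), an immediate early gene, YES1 (2.60), a SRC-family kinase, and IFIT1 (2.52) and IFIT2 (2.39), interferon-induced proteins. All 20 were called under every other gene-level setting tried. Those settings do not include the filter on dim genes, which was also tried. They were quantile normalization, the mean over probe sets, the 4 arrays alone, a replicate block, trended and robust variance, and leaving out each array. The probe sets of some genes were far apart. ADRB1 had others at -0.30 and 0.05, and NANOS1 had 1 at -0.02.

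**Figure D2:**
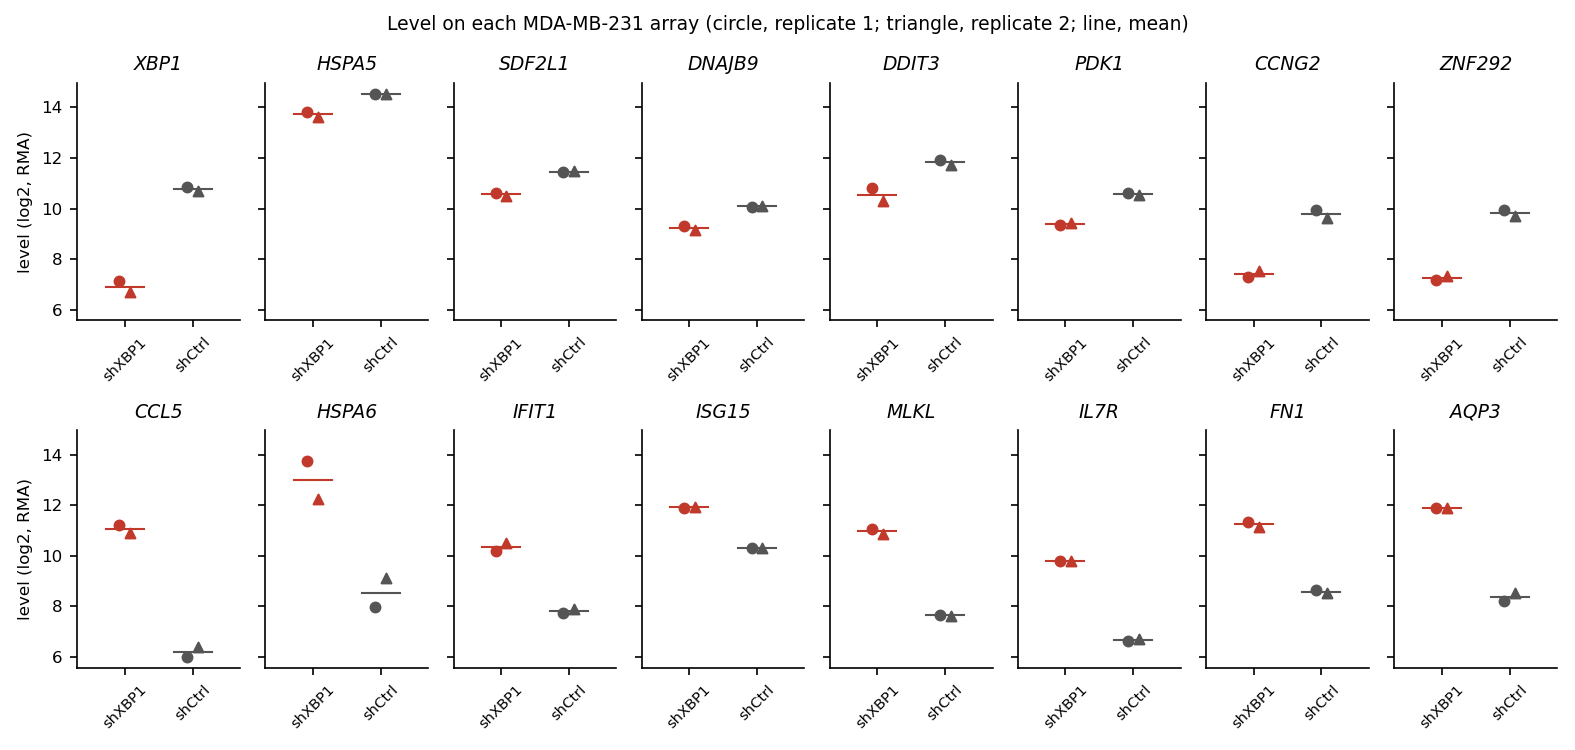
Level of leading genes on each MDA-MB-231 array (log2, vertical axis), with shXBP1 left of shCtrl, a circle for replicate 1, a triangle for replicate 2 and a line at the mean. The shXBP1 and shCtrl points do not overlap for any gene drawn, and HSPA6 has the widest spread between replicates.

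After XBP1, the gene that fell most was ZNF292, a zinc finger transcription factor, at 7.17 and 7.33 on the shXBP1 arrays, against 9.95 and 9.70 on the shCtrl arrays. The change was -2.58 (SE 0.12, adjusted p = 7.19e-05), or 5.98-fold lower, and its other probe sets gave -1.51 and 0.05. CCNG2, an atypical cyclin that restrains proliferation, read 7.27 and 7.53 with shXBP1, against 9.95 and 9.63 with shCtrl. Its change was -2.39 (SE 0.14, adjusted p = 0.000123), with 3 probe sets between -2.44 and -2.21 and the other pair at -0.03 and 0.26. AXL, a receptor tyrosine kinase typical of mesenchymal cells, read 8.99 and 8.65 with shXBP1, against 11.02 and 11.01 with shCtrl, a change of -2.19 (SE 0.34, adjusted p = 0.00429). The shCtrl arrays were nearly equal and both high, but the other AXL probe set, dimmer, stood at -0.07.

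IL20, a cytokine of the IL-10 family, changed by -2.17 at 5.72 and 4.87 with shXBP1, against 7.60 and 7.33 with shCtrl, and the linker histone gene H1-4 by -2.16. PPP1R3B, which brings protein phosphatase 1 to glycogen, changed by -1.93, the kinase anchor gene AKAP11 by -1.91, the transcription factor gene KLF9 by -1.89, and DOCK5, an activator of Rac, by -1.82. A further DOCK5 probe set stood at 0.60. Below these came XK (-1.80), ARHGAP18 (-1.77), PHF5A (-1.73), a subunit of the SF3b splicing complex, TOP2A (-1.72), the topoisomerase of dividing cells, NECAP1 (-1.70), an endocytosis factor, and MAN1A2 (-1.67), a Golgi mannosidase. The last of the 20 were EQTN (-1.67), CREBRF (-1.65), a regulator of CREB3 turnover, the histone demethylase gene KDM7A (-1.65), NAV2 (-1.62) and ZBED6 (-1.59). All 20 were called under every gene-level setting listed above.

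Genes of the unfolded protein response itself changed in both directions. Of 16 sensors, transcription factors and feedback genes, 4 (25.0%) rose and 5 (31.2%) fell, XBP1 included, against 10.6% and 6.68% of all genes (1 to 3 rose and 2 to 4 fell with 1 MDA-MB-231 array left out, fewest without shCtrl replicate 1). Of the sensors, ERN1, which encodes IRE1, differed by 0.22 (adjusted p = 0.206), EIF2AK3, which encodes PERK, by -0.15 and ATF6 by -0.07, none of which passed, while ATF6B rose by 0.41. ATF4 read 13.49 and 13.51 with shXBP1, against 13.06 and 13.07 with shCtrl, high on every array with a small rise of 0.44 (SE 0.09, adjusted p = 0.0134). DDIT3, which encodes the stress factor CHOP downstream of ATF4, went the other way, at 10.81 and 10.28 on the shXBP1 arrays, against 11.94 and 11.74 on the shCtrl arrays. Both shXBP1 arrays lay below both shCtrl arrays, and the change was -1.29 (SE 0.17, adjusted p = 0.00227). ATF3, a stress-induced repressor, rose by 0.84. The feedback genes TRIB3 and PPP1R15A, which limit the PERK arm, fell by 0.44 each on the log2 scale. The calls of ATF4, ATF6B, TRIB3 and PPP1R15A were lost under at least 1 of the other settings.

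A few ER chaperones with known ties to XBP1 or ATF6 fell, while most of their list did not pass. HSPA5, which encodes the ER HSP70 BiP, read 13.80 and 13.63 on the shXBP1 arrays, against 14.53 and 14.53 on the shCtrl arrays. The change was -0.82 (SE 0.10, adjusted p = 0.00145), or 1.76-fold lower, and the groups did not overlap on a gene that stayed among the brightest of the array. The ER HSP90 gene HSP90B1 read 12.09 and 12.45 with shXBP1, against 12.93 and 12.88 with shCtrl, a change of -0.63 (SE 0.12, adjusted p = 0.0114) that was lost under at least 1 other setting. DNAJB9, a BiP co-chaperone and a textbook XBP1 target, read 9.29 and 9.14 with shXBP1, against 10.06 and 10.11 with shCtrl, a change of -0.87 (SE 0.09, adjusted p = 0.000928). SDF2L1, another BiP partner, read 10.62 and 10.51 with shXBP1, against 11.43 and 11.49 with shCtrl and changed by -0.90 (SE 0.09, adjusted p = 0.000708). Both genes had tight replicates and all 3 DNAJB9 probe sets fell, by 0.61 to 0.87.

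Of 32 measured ER chaperones and folding enzymes, 4 (12.5%) rose, 7 (21.9%) fell and 21 did not pass, with a list median of -0.10 against 0.03 for all genes (2 to 3 rose and 4 to 7 fell with 1 MDA-MB-231 array left out, fewest without shCtrl replicate 1). The fallen genes were spread over the HSP70 and HSP90 class (2 of 3), co-chaperones (4 of 11) and lectin chaperones (1 of 4). Of the 14 disulfide isomerases and oxidases, 1 passed, TXNDC11, which rose by 0.40, a call lost under at least 1 other setting. Risers included SDF2 (9.33 and 9.25 with shXBP1, against 7.37 and 7.50 with shCtrl, a change of 1.86 (SE 0.09, adjusted p = 7.71e-05)), the paralogue of SDF2L1, and SIL1 (0.70), the nucleotide exchange factor of BiP. Both SDF2 values with shXBP1 lay well above those with shCtrl.

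The promoters of HSPA5, HSP90B1 and XBP1 are shown because each holds an ER stress element, the site that ATF6 and XBP1 are known to bind with NF-Y. The element was searched as CCAAT, any 9 bases and then CCACG, on both strands, from 250 bases before to 50 after the annotated start, in RefSeq promoters of build GRCh38.p14, and is in capitals. These are chr9:125241294-125241593 on the minus strand (HSPA5), chr12:103930160-103930459 on the plus strand (HSP90B1) and chr22:28800520-28800819 on the minus strand (XBP1).
HSPA5: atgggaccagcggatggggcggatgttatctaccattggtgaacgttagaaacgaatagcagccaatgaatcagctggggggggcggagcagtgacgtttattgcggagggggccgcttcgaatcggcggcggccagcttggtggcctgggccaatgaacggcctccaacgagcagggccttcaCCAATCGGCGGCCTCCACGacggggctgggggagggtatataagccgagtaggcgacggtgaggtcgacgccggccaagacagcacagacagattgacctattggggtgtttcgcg
HSP90B1: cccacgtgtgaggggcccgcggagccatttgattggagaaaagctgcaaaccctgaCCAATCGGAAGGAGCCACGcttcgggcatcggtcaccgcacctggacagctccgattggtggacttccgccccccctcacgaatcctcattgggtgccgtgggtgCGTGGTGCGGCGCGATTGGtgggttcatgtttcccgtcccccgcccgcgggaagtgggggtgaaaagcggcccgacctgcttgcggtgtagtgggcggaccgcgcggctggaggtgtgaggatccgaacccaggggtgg
XBP1: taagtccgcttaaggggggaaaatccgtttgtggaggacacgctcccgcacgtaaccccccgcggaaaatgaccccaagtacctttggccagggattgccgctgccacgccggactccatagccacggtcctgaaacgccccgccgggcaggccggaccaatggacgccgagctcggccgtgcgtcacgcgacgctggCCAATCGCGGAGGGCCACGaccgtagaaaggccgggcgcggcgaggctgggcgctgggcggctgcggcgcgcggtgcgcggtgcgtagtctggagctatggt
The element begins 66 bases before the HSPA5 start, 194 and 89 bases before the HSP90B1 start and 52 bases before the XBP1 start. Among the 15384 tested genes with a promoter in the table, 16 (0.104%) held it, and among the 6 lowered chaperones with a promoter 2 did. So did 6 of the 29 ER chaperones and folding enzymes with a promoter (20.7%), whether or not they changed. A match describes letters only.

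Genes of ER-associated degradation, which returns misfolded protein to the cytosol for destruction, fell more often than they rose: 6.0 fell and 2.0 rose of 24, with a median of -0.07 (1 to 2 rose and 4 to 6 fell with 1 MDA-MB-231 array left out, fewest without shCtrl replicate 1 or shCtrl replicate 2 or shXBP1 replicate 1). The falls were 25.0% and the rises 8.33% of the list, against 6.68% and 10.6% of all genes. In the brightest part of the genes 13.2% fell and 16.4% rose. The ER membrane ubiquitin ligase gene RNF139 changed by -1.01, and UBXN4, which recruits the extraction ATPase p97, by -1.14. EDEM3, a mannosidase that marks clients for degradation, changed by -0.57, and the ligase gene MARCHF6 by -0.57. The known XBP1 targets EDEM1 (-0.50, adjusted p = 0.0535) and HERPUD1 (-0.22, adjusted p = 0.314) did not pass. DERL1, a channel component, rose by 0.61, and FAF2 by 0.81, although the other FAF2 probe set stood at -0.57. The calls of EDEM3, MARCHF6, DERL1 and FAF2 were lost under at least 1 other setting.

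Of 23 genes of translocation and signal peptide cleavage 3 (13%) rose and 2 (8.70%) fell, near the shares over all genes (10.6% and 6.68%). SSR1, a subunit of the translocon-associated complex, stood out at 13.04 and 13.16 on the shXBP1 arrays, against 10.82 and 11.10 on the shCtrl arrays, a change of 2.14 (SE 0.11, adjusted p = 9.06e-05), and its 6 probe sets ranged from 0.15 to 2.14. SEC61A1, the core of the channel, differed by 0.10 and did not pass. SRP72, of the signal recognition particle, fell by 0.66. Of 38 genes of ER to Golgi transport 8 rose and 3 fell, with a median of 0.12 (4 to 7 rose and 1 to 4 fell with 1 MDA-MB-231 array left out, fewest without shCtrl replicate 1). The COPII coat gene SEC23B read 10.56 and 11.10 with shXBP1, against 9.37 and 9.23 with shCtrl, a change of 1.53 (SE 0.17, adjusted p = 0.00113), and its 3 probe sets rose by 1.05 to 1.53. Another coat gene, SEC31A, rose by 1.04, the cargo receptor gene SURF4 by 0.67 and GBF1, which loads the GTPase ARF1, by 1.91. ARF1 itself fell by 1.22. None of these 5 transport genes lost its call under the other settings.

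Of 40 targets of PERK and ATF4, 8 (20%) rose and 9 (22.5%) fell (6 to 8 rose and 5 to 9 fell with 1 MDA-MB-231 array left out, fewest without shCtrl replicate 1). Over all genes 10.6% rose and 6.68% fell. Of 12 stress regulators in the list 7 fell and 2 rose, with a median of -0.44. Of 17 genes of amino acid synthesis and transport 3 rose and 1 fell, and of 11 tRNA synthetase genes 3 rose and 1 fell. The difference between these classes was not tested. GDF15, a secreted stress hormone, read 9.54 and 9.26 on the shXBP1 arrays, against 10.78 and 10.77 on the shCtrl arrays, a change of -1.37 (SE 0.13, adjusted p = 0.000546). DDIT4, an inhibitor of mTORC1 that also responds to hypoxia, read 13 on both shXBP1 arrays, against 13.82 and 13.73 on the shCtrl arrays, a change of -0.78 (SE 0.09, adjusted p = 0.0011). SESN2, another mTORC1 inhibitor, fell by 1.18. Each of these stress regulators was lower on both shXBP1 arrays. On the other side stood STC2 (0.98), a secreted glycoprotein induced by ER stress, the amino acid transporter gene SLC38A2 (0.50) and TARS1 (0.55), whose sign reversed with the mean over probe sets (-0.18).

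The genes of the hypoxia factors did not pass the test, while part of their targets fell. HIF1A differed by -0.30 (adjusted p = 0.0575) and EPAS1, which encodes HIF2 alpha, by 0.00 (adjusted p = 0.981). Of 10 genes for subunits and oxygen sensing, HIF1AN, the asparaginyl hydroxylase that inhibits HIF, was the only one that passed, with a rise of 0.82. The prolyl hydroxylase gene EGLN3, itself a HIF target, differed by -0.16. Of 53 measured HIF1 targets 16 (30.2%) fell and 6 (11.3%) rose, against 6.68% and 10.6% of all genes, and the list median was -0.11 (3 to 4 rose and 13 to 14 fell with 1 MDA-MB-231 array left out, fewest without shCtrl replicate 1 or shCtrl replicate 2).

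By share, the HIF1 targets fell most in mitochondrial restraint (50.0%) and in signalling and chromatin (46.7%). The share in glucose uptake and glycolysis was 25.0%, against 30.2% of the whole list. In the class of glucose uptake and glycolysis 5 of 20 fell and 1 rose. HK2, the hexokinase that commits glucose, changed by -1.02, PFKFB3, which makes the activator of phosphofructokinase, by -1.11 and the glucose transporter gene SLC2A1 by -0.91, whose other probe set stood at 0.20. LDHA differed by -0.01 and did not pass. Of 6 genes that restrain mitochondria 3 fell. PDK1, a kinase that shuts pyruvate dehydrogenase, read 9.36 and 9.41 on the shXBP1 arrays, against 10.60 and 10.52 on the shCtrl arrays, a change of -1.17 (SE 0.08, adjusted p = 0.000213), and its relative PDK3 fell by 1.04. In the signalling and chromatin class 7 of 15 fell and 0 rose. KDM3A, a hypoxia-induced histone demethylase, changed by -1.01, the chemokine receptor gene CXCR4 by -0.77 and the repressor gene BHLHE40 by -0.66.

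Secreted HIF1 targets and matrix enzymes did otherwise. VEGFA, the main angiogenic growth factor, read 10.46 and 10.52 with shXBP1, against 11.33 and 11.08 with shCtrl, a change of -0.71 (SE 0.11, adjusted p = 0.00445), and all 4 of its probe sets fell, by 0.71 to 1.71. Of the 8 angiogenic and secreted targets VEGFA fell and 3 rose, namely EDN1 (1.41), the vasoconstrictor endothelin 1, STC1 (0.70), a secreted glycoprotein, and LOX (0.63), which crosslinks collagen. Of 4 matrix enzymes 2 rose and 0 fell, the collagen prolyl hydroxylase gene P4HA2 by 0.49. Calls of EDN1, STC1, LOX and SLC2A1 were lost under at least 1 other setting. The core hypoxia response element, searched as ACGTG on both strands, lay in the promoters of 7 of 12 fallen HIF1 targets with a promoter in the table (HK2, ALDOC, PDK3, DDIT4, ANKRD37, BHLHE40 and FAM162A). It lay in 25 of 46 HIF1 targets with a promoter (54.3%), whether or not they changed, and in 3 of 5 that rose. This 5-letter motif lay in 24.1% of the promoters of all genes tested.

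Starvation genes under FOXO control and energy sensing also changed, 7 of 24 falling and 4 rising (2 to 5 rose and 6 to 8 fell with 1 MDA-MB-231 array left out, fewest without shXBP1 replicate 1 or shXBP1 replicate 2). The falls were 29.2% and the rises 16.7% of the list, against 6.68% and 10.6% of all genes. Besides CCNG2, PPP1R3B and KLF9, given above, FOXO1 itself fell by 1.07. PDK4, which spares glucose in fasting, rose by 0.92, and the stress-induced SESN1 by 0.53. Of 19 jumonji histone demethylases, which use oxygen, 5 (26.3%) fell and 1 (5.26%) rose. KDM7A changed by -1.65, JMJD1C by -1.29, KDM3A by -1.01 and KDM4A by -0.57. KDM5A rose by 0.57, a call lost under at least 1 other setting.

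Of 39 measured cytosolic heat shock proteins, a family partly under HSF1 control, 14 (35.9%) rose, against 10.6% of all genes, 0 fell and 25 did not pass, with a median of 0.24. HSF1 differed by -0.01 and did not pass. The risers included 4 of 8 HSP70 genes, 5 of 9 HSP40 co-chaperones, 2 of 9 genes of the HSP90 and HSP60 class and 3 of 12 BAG and small heat shock proteins. Across the alternatives 11 to 20 rose and 0 or 1 fell.

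After HSPA6 and HSPA2, the largest rises in the class were in small heat shock proteins. HSPB8, which works with BAG3 in clearing aggregates, read 10.23 and 10.09 on the shXBP1 arrays, against 8.21 and 8.19 on the shCtrl arrays, a change of 1.96 (SE 0.12, adjusted p = 0.000137). The crystallin CRYAB read 7.75 and 7.04 with shXBP1, against 5.72 and 5.45 with shCtrl, a change of 1.81 (SE 0.21, adjusted p = 0.00146). Both were higher on both shXBP1 arrays than on either shCtrl array, CRYAB with a wider spread. DNAJB1, the main stress-induced HSP40, read 12.99 and 12.77 with shXBP1, against 11.24 and 11.89 with shCtrl and changed by 1.32 (SE 0.20, adjusted p = 0.00367). Its relative DNAJA1 read 13.38 and 13.25 with shXBP1, against 12.34 and 12.45 with shCtrl and changed by 0.92 (SE 0.11, adjusted p = 0.00134). BAG3, a co-chaperone that HSF1 induces, read 11.71 and 11.45 with shXBP1, against 10.46 and 10.53 with shCtrl, a change of 1.09 (SE 0.12, adjusted p = 0.00115). Probe sets of HSPA1A, HSPA1B and HSPA8 with a single symbol were not among those used, and these genes were not analysed here. Of 34 proteasome subunits 6 (17.6%) rose, led by PSMD12 (1.16), and 0 fell, against 10.6% and 6.68% of all genes. The other named subunits, PSMD6 (0.56), PSMA4 (0.48) and PSMA3 (0.47), lost their calls under at least 1 other setting, and with the mean over probe sets PSMD6 (-0.15) and PSMA3 (-0.66) reversed.

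The promoters of HSPA6 and DNAJA1 are shown because they hold a heat shock element of 3 alternating units, the site that HSF1 trimers bind. It was searched on both strands as the units GAA, TTC and GAA, or TTC, GAA and TTC, with any 2 bases (NN) between units, each form being the reverse complement of the other, and is in capitals. The promoters lie at chr1:161524290-161524589 (HSPA6) and chr9:33025023-33025322 (DNAJA1), both on the plus strand, in RefSeq sequence of build GRCh38.p14.
HSPA6: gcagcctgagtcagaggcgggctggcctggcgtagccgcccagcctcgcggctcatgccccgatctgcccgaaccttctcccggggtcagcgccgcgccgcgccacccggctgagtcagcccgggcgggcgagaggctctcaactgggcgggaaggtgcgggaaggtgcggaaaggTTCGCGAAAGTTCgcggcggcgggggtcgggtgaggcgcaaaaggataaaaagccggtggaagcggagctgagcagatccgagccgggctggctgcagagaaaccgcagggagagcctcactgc
DNAJA1: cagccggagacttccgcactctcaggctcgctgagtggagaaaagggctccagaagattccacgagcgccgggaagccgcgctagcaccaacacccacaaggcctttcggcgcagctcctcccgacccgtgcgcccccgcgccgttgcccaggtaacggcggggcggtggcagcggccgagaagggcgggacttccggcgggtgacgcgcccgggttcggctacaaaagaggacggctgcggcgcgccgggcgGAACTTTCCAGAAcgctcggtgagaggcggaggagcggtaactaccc
In HSPA6 the element begins 74 bases before the start, and in DNAJA1 it lies just after it. Of 12 raised heat shock genes with a promoter in the RefSeq set, 3 held the element, DNAJB6 being the other. The same was true of 4 of 33 list members with a promoter (12.1%), whether or not they changed, against 0.429% of all tested genes with a promoter. DNAJB1 had no match in this window, which says only that these letters are not there.

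Of 85 measured genes of the interferon pathway 27 (31.8%) rose, against 10.6% of all genes, 1 fell and 57 did not pass, with a median of 0.23. None of the 8 ligand genes passed with limma, and 1.0 had an unadjusted p under 0.05. IFNB1, interferon beta, read 4.68 and 4.81 with shXBP1, against 4.59 and 4.89 with shCtrl, and IFNL1, a type III interferon, differed by -0.05. IFNB1 thus lay below the median probe set on every array, where the array gives little resolution. Of 6 receptor genes 2 rose and 1 fell. IL10RB, a subunit of the type III interferon receptor, rose by 1.28, and IFNAR1 stood at -0.53 by its brightest probe set but 0.62 by the mean over its probe sets, so its direction is not settled.

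In the class of nucleic acid sensors and their adaptors 5 of 12 genes rose and 0 fell. RIGI, which senses short double-stranded RNA ends, read 9.01 and 9.06 on the shXBP1 arrays, against 7.73 and 7.75 on the shCtrl arrays, a change of 1.29 (SE 0.10, adjusted p = 0.000237), though its other probe sets stood at -0.07 and 0.34. IFIH1, which encodes the sensor MDA5, read 7.30 and 7.62 with shXBP1, against 5.68 and 5.83 with shCtrl, a change of 1.71 (SE 0.13, adjusted p = 0.00023). The replicates of both genes were close and the groups well apart. Of 11 kinases and transcription factors 2 rose, IRF1 among them (0.82, with 1.10 by its other probe set).

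Antiviral effectors were the largest class, with 14 of 36 (38.9%) higher and 0 lower. By share this was near the sensors and adaptors (41.7% higher) and the ISG15 system and inhibitors (42.9% higher). IFIT1, which binds viral RNA that lacks cap methylation, read 10.18 and 10.51 on the shXBP1 arrays, against 7.76 and 7.90 on the shCtrl arrays, a change of 2.52 (SE 0.13, adjusted p = 9.06e-05). IFIT2 read 9.55 and 9.84 with shXBP1, against 7.29 and 7.32 with shCtrl, a change of 2.39 (SE 0.12, adjusted p = 7.96e-05). ISG15, a ubiquitin-like modifier, read 11.91 and 11.94 with shXBP1, against 10.30 and 10.29 with shCtrl, a change of 1.63 (SE 0.09, adjusted p = 9.76e-05). The ISG15 replicates were almost equal within each group. SAMD9 rose by 2.67. Further effectors, chosen here after their values were seen, were IFIT3 (2.35), OASL (2.34), IFI44 (2.23) and OAS1 (0.98). The guanylate-binding protein GBP3 rose by 3.05, and GBP3 was the only riser of 5 guanylate-binding proteins. In the ISG15 system and inhibitors 3 of 7 rose. The count for the whole list was 20 to 29 higher and 0 to 4 lower across the alternatives. Of 16 genes of MHC class I presentation, which interferon also raises, 2 (12.5%) rose, near the 10.6% of all genes, and 0 fell. The risers were the immunoproteasome gene PSMB9 (0.93) and HLA-B (0.39), and the HLA-B call was lost under at least 1 other setting.

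The promoters of IFIT1 and ISG15 are shown because they hold interferon-stimulated response elements, searched on both strands as GAAA, any 2 bases and then GAAA (TTTC, NN and TTTC on the other strand), and set in capitals. They lie at chr10:89392373-89392672 (IFIT1) and chr1:1013247-1013546 (ISG15), both on the plus strand, in RefSeq sequence of build GRCh38.p14.
IFIT1: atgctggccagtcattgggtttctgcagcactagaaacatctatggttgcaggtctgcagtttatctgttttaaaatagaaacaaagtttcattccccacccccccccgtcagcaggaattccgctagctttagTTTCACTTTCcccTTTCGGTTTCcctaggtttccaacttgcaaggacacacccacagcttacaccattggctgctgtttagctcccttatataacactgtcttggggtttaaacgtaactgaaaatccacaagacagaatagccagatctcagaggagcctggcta
ISG15: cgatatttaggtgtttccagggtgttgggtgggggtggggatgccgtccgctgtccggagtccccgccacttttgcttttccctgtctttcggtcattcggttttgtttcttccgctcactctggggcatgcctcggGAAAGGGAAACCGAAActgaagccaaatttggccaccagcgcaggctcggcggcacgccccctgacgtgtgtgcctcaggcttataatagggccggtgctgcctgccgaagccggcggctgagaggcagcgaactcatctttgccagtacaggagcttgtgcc
The matches begin 116 and 103 bases before the IFIT1 start, and 113 and 107 bases before the ISG15 start, where they overlap. Of 23 raised interferon pathway genes with a promoter 13 (56.5%) held the motif, among them IFIH1, IFIT1, SAMD9, ISG15 and GBP3. The same was true of 31 of 65 list members with a promoter (47.7%), whether or not they changed, against 2.94% of all tested genes with a promoter. Among genes that rose by at least 2-fold, 16 of 293 held it (5.46%).

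**Figure D3:**
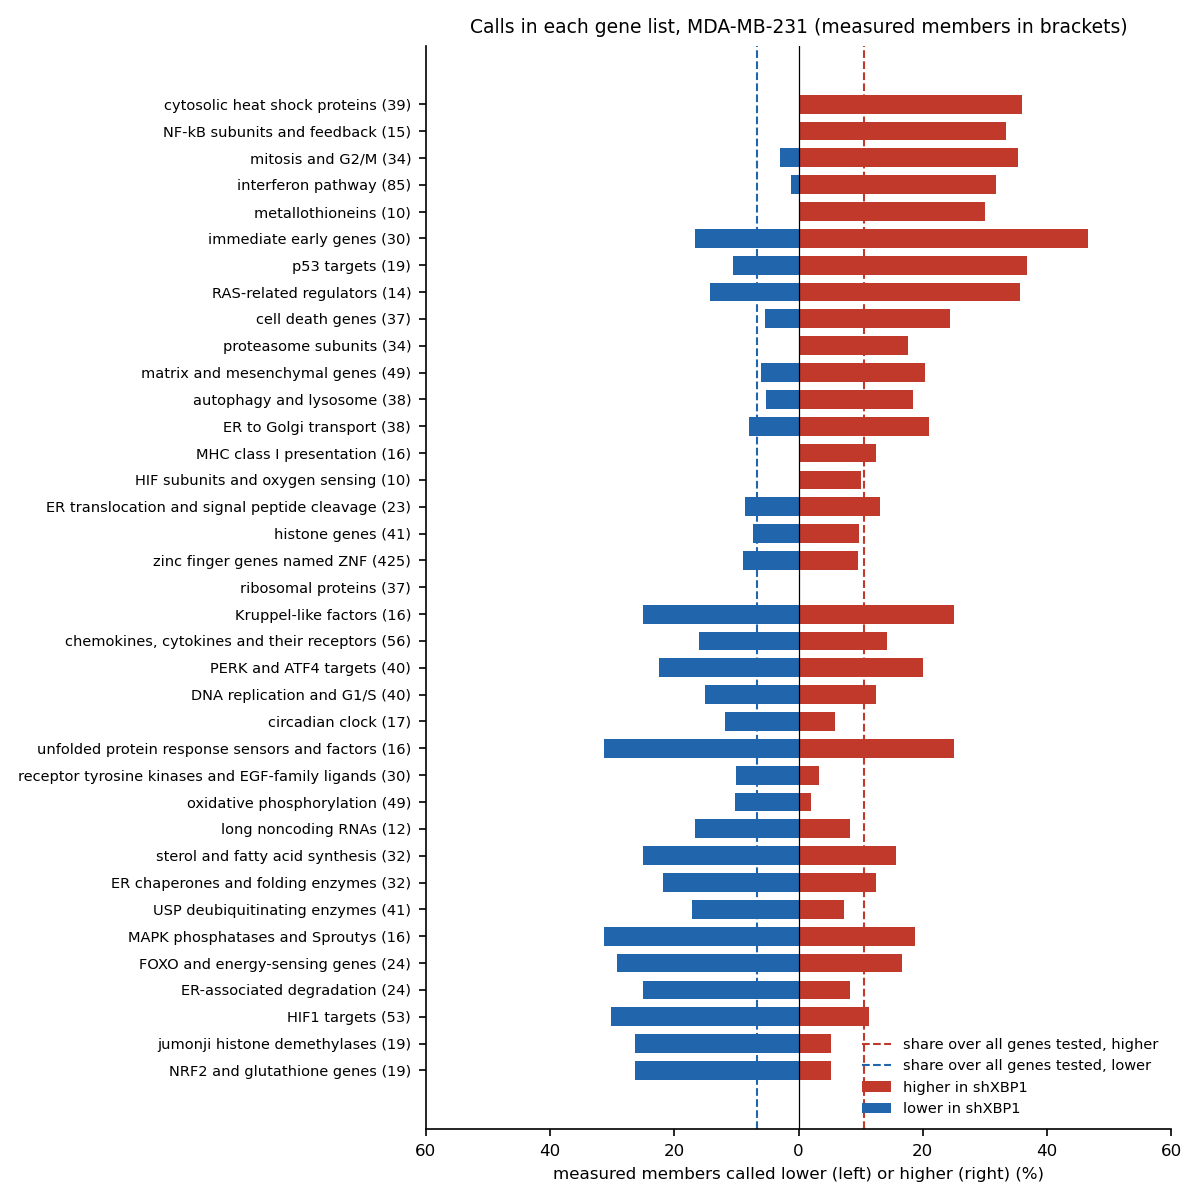
Percent of the measured members of each gene list called higher (right) or lower (left) with shXBP1 in MDA-MB-231 (horizontal axis), with lists down the page and dashed lines at the shares over all genes tested (10.6% and 6.68%). The heat shock and interferon bars run mostly to the right (35.9% and 31.8% higher), and the HIF1 target bar is longer on the left (30.2% lower, 11.3% higher).

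Chemokines, cytokines and their receptors changed in both directions, 8 of 56 (14.3%) rising and 9 (16.1%) falling, against 10.6% and 6.68% of all genes. Besides CCL5 and IL7R, the inflammatory cytokine gene IL6 read 11.38 and 11.18 on the shXBP1 arrays, against 9.89 and 9.84 on the shCtrl arrays, a change of 1.41 (SE 0.10, adjusted p = 0.000212), and IL20RB, a receptor subunit for IL-20, rose by 1.73. The neutrophil chemokine gene CXCL8 changed by -1.01, and IL1RAP, a subunit of the IL-1 receptor, by -0.84. Of 15 genes for NF-kB subunits and feedback 5 rose and 0 fell, with a median of 0.24 (3 to 4 rose and 0 fell with 1 MDA-MB-231 array left out, fewest without shXBP1 replicate 1). TNIP1, an inhibitor of NF-kB signalling, rose by 1.16 and the inhibitor gene NFKBIE by 0.75. NFKBIZ rose by 0.95, but its other probe set stood at -0.74.

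Cell death genes rose more often than they fell, 9 (24.3%) against 2 (5.41%) of 37, where 10.6% of all genes rose and 6.68% fell. MLKL, given above, was the largest, followed by the inflammatory caspase gene CASP1 (1.64), whose 5 probe sets rose by 1.04 to 2.02, and the death receptor gene FAS (1.15). HRK, a BH3-only killer protein, rose by 0.93. CFLAR, which blocks caspase-8, changed by -0.43 and CASP2 by -0.43, and the calls of HRK, CFLAR and CASP2 were lost under at least 1 other setting. Of 19 p53 targets 7 rose and 2 fell, including FAS, the p53-induced 14-3-3 protein gene SFN (0.70) and TP53I3 (0.63) among the risers and GDF15 among the fallers.

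Immediate early genes, which respond within minutes to growth and stress signals, were called often, with 14 of 30 higher and 5 lower and a median of 0.33 (10 to 12 rose and 2 to 5 fell with 1 MDA-MB-231 array left out, fewest without shXBP1 replicate 2). The rises were 46.7% and the falls 16.7% of the list, against 10.6% and 6.68% of all genes. IER5, a target of HSF1 and p53, rose by 2.63 (SE 0.29), EGR1, a growth factor-induced transcription factor, by 2.04 (SE 0.24), FOSB by 2.00 (SE 0.12) and ZFP36, which destabilises cytokine mRNA, by 1.86 (SE 0.18). MAFF changed by -0.56, and FOSL2 by -0.66, a call lost under at least 1 other setting. Among 16 MAPK phosphatases and Sprouty-type inhibitors 3 rose and 5 fell (3 rose and 2 to 3 fell with 1 MDA-MB-231 array left out, fewest without shXBP1 replicate 1). DUSP6 rose by 0.91, while DUSP4 changed by -1.50 and SPRED1, an inhibitor of RAS signalling, by -1.39. All 3 SPRED1 probe sets were lower, by 0.54 to 1.39. Of 14 RAS-related regulators 5 (35.7%) rose and 2 (14.3%) fell, with RASD1 and GEM first, RND1 next (1.30) and the GTPase-activating protein gene RASAL2 lowest (-1.03). RASA2 stood at 0.63 but at -0.38 by the mean over its probe sets.

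Mitotic genes rose more often than they fell, 12 (35.3%) against 1 of 34 (5 to 10 rose and 1 fell with 1 MDA-MB-231 array left out, fewest without shCtrl replicate 1), with a median of 0.28. UBE2C, the ubiquitin-conjugating enzyme of the anaphase-promoting complex, rose by 1.77 (SE 0.09, adjusted p = 9.06e-05), the phosphatase gene CDC25B by 1.12, the kinase gene AURKA by 0.72 and NEK2 by 0.59. The 3 AURKA probe sets gave 0.72 to 0.81. TOP2A was the member that fell (-1.72 (SE 0.12, adjusted p = 0.000206)), and its 3 probe sets gave -1.72 to -1.13. Across the alternatives 5 to 18 mitotic genes rose and 1 or 2 fell. Of 40 genes of DNA replication and G1/S 5 (12.5%) rose and 6 (15%) fell, against 10.6% and 6.68% of all genes (2 to 3 rose and 1 to 5 fell with 1 MDA-MB-231 array left out, fewest without shCtrl replicate 1 or shXBP1 replicate 1). The shares of this list were near those in the brightest part of the genes, 16.4% rising and 13.2% falling. The members included the CDK inhibitor gene CDKN2B at 1.57 and the cyclin gene CCNE2 at -0.73. Of 41 histone genes 4 (9.76%) rose and 3 (7.32%) fell, near the shares over all genes, with the damage-marking variant gene H2AX at 1.11 and the linker histone genes H1-4 at -2.16 and H1-2 at -0.64.

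Matrix and mesenchymal genes were raised at 10 of 49 (20.4%) and lowered at 3 (6.12%), against 10.6% and 6.68% of all genes. FN1 read 11.35 and 11.13 on the shXBP1 arrays, against 8.63 and 8.52 on the shCtrl arrays, a change of 2.66 (SE 0.10, adjusted p = 3.63e-05). Its shXBP1 arrays stood above the shCtrl arrays at 4 FN1 probe sets by 2.66 to 2.95 and the other 3 gave 0.08 to 0.34. The laminin gene LAMB3 rose by 2.09 and SNAI1, a repressor that drives epithelial-mesenchymal transition, by 1.83. The collagen genes COL5A2 and COL12A1 changed by -0.76 and -0.60. Luminal markers were not uniformly low in this line. The knockdown raised 3 of 19 and lowered 2, XBP1 among the lowered, and 14 did not pass. TFF1, an oestrogen-regulated secreted peptide, read 9.56 and 9.49 with shXBP1, against 8.22 and 8.22 with shCtrl, a change of 1.30 (SE 0.10, adjusted p = 0.000267), and the epithelial transcription factor gene ELF3 rose by 1.24. Of 30 receptor tyrosine kinases and EGF-family ligands 3 (10.0%) fell, namely AXL, DDR2 (-0.69) and EGFR (-0.56), and 1 (3.33%) rose, HBEGF (0.88). EGFR stood at 0.035 by the mean over its probe sets, and DDR2 and HBEGF lost their calls under at least 1 other setting.

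**Figure D4:**
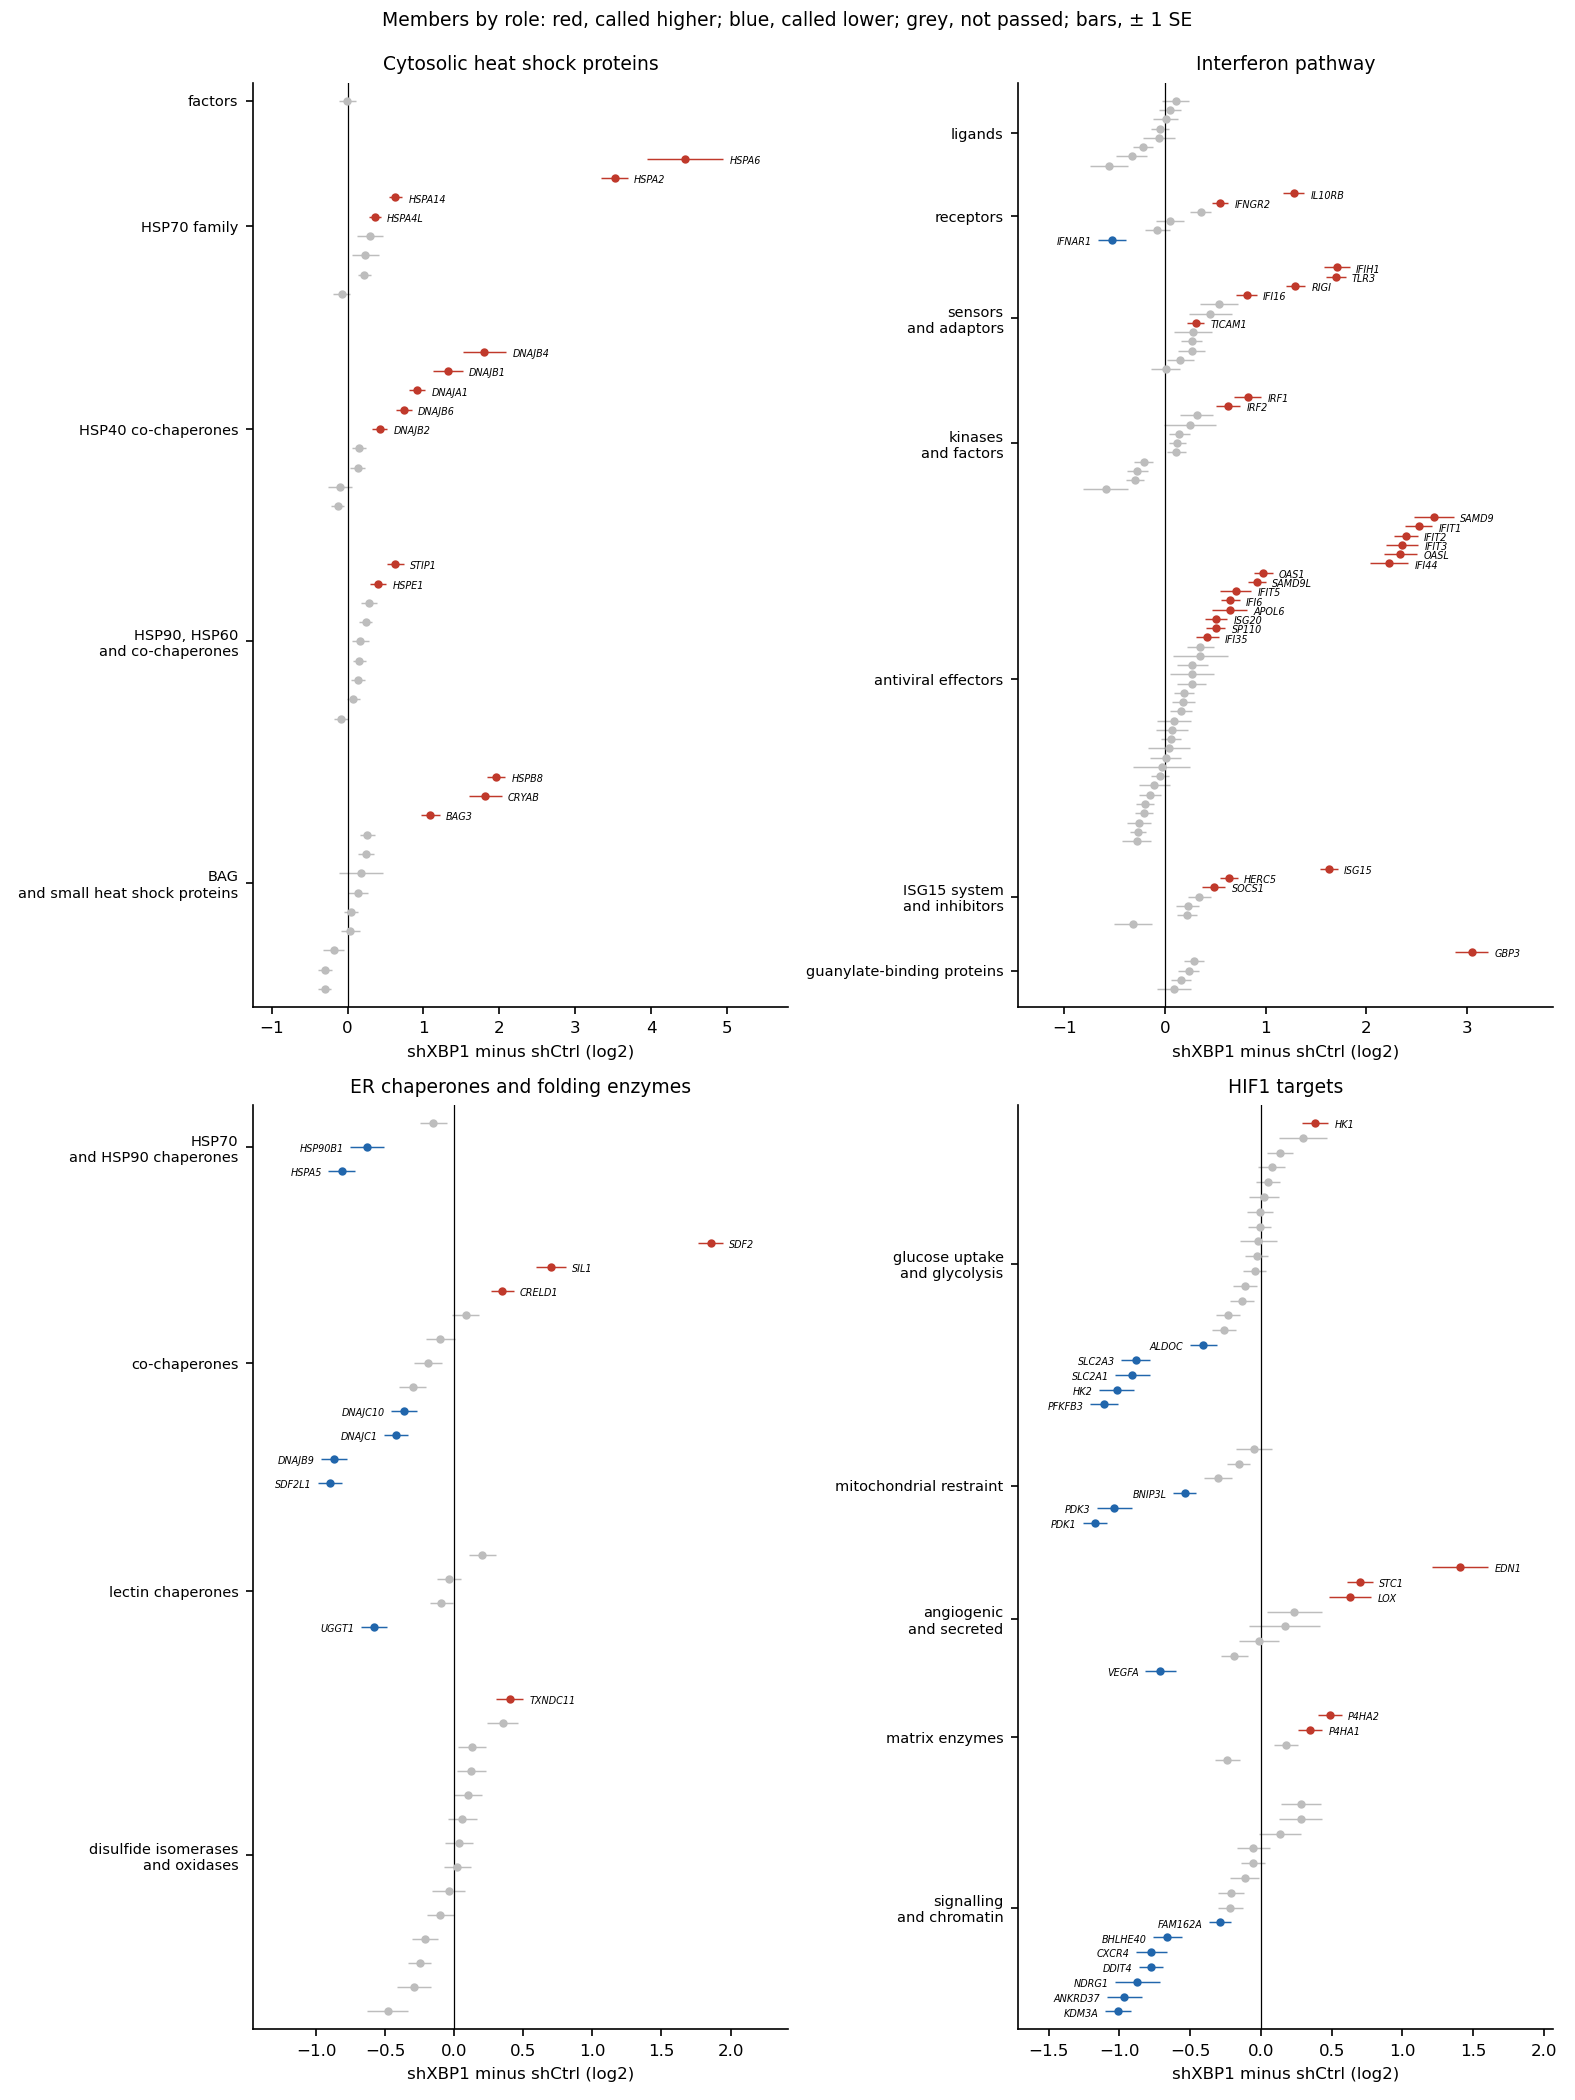
Change in MDA-MB-231 (shXBP1 minus shCtrl, log2, horizontal axis) of each measured heat shock, interferon, ER chaperone and HIF1 target gene, grouped by role (vertical axis), with bars of ± 1 SE, red for called higher, blue for called lower and grey for not passed. The called heat shock genes all lie to the right of 0, and the called genes of the signalling and chromatin class of HIF1 targets all lie to the left.

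Of 32 genes of sterol and fatty acid synthesis 5 rose and 8 fell (3 to 6 rose and 5 to 7 fell with 1 MDA-MB-231 array left out, fewest without shCtrl replicate 2 or shXBP1 replicate 1). The fatty acid elongase gene ELOVL6 rose by 1.11, while ACLY, which makes cytosolic acetyl-CoA, changed by -0.78 and the lipogenic factor gene SREBF1 by -0.65. Of 49 genes of oxidative phosphorylation 5 fell and 1 rose (NDUFB3, 0.62), and the number that fell ran from 0 to 22 over the alternatives. By share, 10.2% of the oxidative phosphorylation genes fell and 2.04% rose. None of 37 ribosomal protein genes passed with limma, of which 0 had an unadjusted p under 0.05. In the lists that follow, 26.3% of the NRF2 and glutathione genes fell and 5.26% rose. Of the autophagy and lysosome genes 18.4% rose and 5.26% fell. Of 19 NRF2 and glutathione genes 5 fell (0 to 1 rose and 3 to 4 fell with 1 MDA-MB-231 array left out), including NQO1 (-0.56) and GCLC (-0.52), and HMOX1, which breaks down haem, rose (1.24), a call lost under at least 1 other setting. Of 38 autophagy and lysosome genes 7 rose and 2 fell (3 to 5 rose and 0 fell with 1 MDA-MB-231 array left out, fewest without shCtrl replicate 1 or shXBP1 replicate 1), led by the autophagy receptor gene OPTN (1.50) and the protease gene CTSB (0.92).

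Of 16 Krüppel-like factors 4 (25.0%) rose and 4 (25.0%) fell, against 10.6% and 6.68% of all genes, but with the mean over probe sets 0 rose and 4 fell. By the brightest probe sets KLF9 (-1.89) and KLF5 (-0.99) were lowest. Of 10 metallothionein genes and their regulator 3 rose and 0 fell (1 to 2 rose and 0 fell with 1 MDA-MB-231 array left out, fewest without shXBP1 replicate 1), MTF1, the metal-sensing factor, by 0.66. Of 17 clock genes 1 (5.88%) rose, DBP, and 2 (11.8%) fell, NFIL3 (-0.85) and BHLHE40. Of 12 long noncoding RNAs 1 rose and 2 fell (0 to 1 rose and 0 to 2 fell with 1 MDA-MB-231 array left out, fewest without shCtrl replicate 1), with MALAT1 at -0.55, where 11 of 12 probe sets were below 0 but the call was lost under at least 1 other setting. Of 41 USP deubiquitinating enzymes 3 rose and 7 fell (2 to 4 rose and 1 to 6 fell with 1 MDA-MB-231 array left out, fewest without shCtrl replicate 1). Of 425 zinc finger genes named ZNF 41 (9.65%) rose and 38 (8.94%) fell, both near the shares over all genes (26 to 39 rose and 25 to 36 fell with 1 MDA-MB-231 array left out, fewest without shCtrl replicate 1), with ZNF112 at 1.33, ZNF302 at 1.28, ZNF800 at -1.52 and ZNF331 at -1.50.

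The same hairpins in T47D, where 29.1% of genes were called, gave a way to see which changes differ between the lines. Of all genes there 15.5% rose and 13.5% fell. The lines share no arrays, but they share the variance estimate of each gene. Of the 2090 genes that rose in MDA-MB-231, 657 (31.4%) rose in T47D, 339 (16.2%) fell there and 1094 did not pass. These 657 are 21.4% of the genes that rose in T47D. Of the 1320 that fell in MDA-MB-231, 381 (28.9%) fell in T47D, 336 (25.5%) rose and 603 did not pass. The 381 are 14.2% of the genes that fell in T47D. The difference between the lines (the MDA-MB-231 change minus the T47D change) passed for 4905 genes (24.8%), and for 2014 of the 3410 called in MDA-MB-231 (59.1%). That share is raised by construction, since both tests use the MDA-MB-231 arrays.

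Of the 20 largest rises 19 differed between the lines, ADRB1 being the exception with 2.97 in MDA-MB-231 and 2.82 in T47D. Among all genes 24.8% differed. The count is raised by construction, since genes were picked for large MDA-MB-231 changes and the difference uses those changes. CCL5 stood at 4.87 in MDA-MB-231 and 0.06 (SE 0.15, adjusted p = 0.825) in T47D, a difference of 4.81 (SE 0.22, adjusted p = 6.4e-05). HSPA6 stood at 4.44 in MDA-MB-231, against -0.09 (SE 0.50, adjusted p = 0.929) in T47D. FN1 and AQP3 went in opposite directions, FN1 at 2.66 in MDA-MB-231 and -0.57 in T47D and AQP3 at 3.53 in MDA-MB-231 and -1.99 in T47D. MLKL rose in both lines, by 3.30 in MDA-MB-231 and 0.43 in T47D. Of the 20 largest falls 17 differed, a count raised in the same way, the exceptions being XK, PHF5A and MAN1A2. ZNF292 fell in MDA-MB-231 and rose by 0.88 in T47D, and CCNG2 (0.51 in T47D) and CREBRF (1.20 in T47D) did likewise.

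Several stress genes described above also parted between the lines. The ATF4-controlled and hypoxia genes SESN2, DDIT4, GDF15, PDK1 and KDM3A fell in MDA-MB-231, while in T47D they stood at 1.48, 0.85, 0.92, 0.62 and 1.01. The difference for DDIT4 was -1.63 (SE 0.12, adjusted p = 0.00022) and for PDK1 -1.79 (SE 0.12, adjusted p = 0.000157). HSPA5 fell in both lines, with changes of -0.82 in MDA-MB-231 and -0.47 in T47D, and its difference of -0.34 (SE 0.14, adjusted p = 0.111) did not pass. IFIT1 rose in both, by 2.52 in MDA-MB-231 and 1.00 in T47D, but ISG15 rose in MDA-MB-231 and stood at -0.14 (SE 0.09, adjusted p = 0.315) in T47D. Mitotic genes went apart, with 12 higher and 1 lower of 34 in MDA-MB-231 and 0 higher and 26 lower in T47D, and the difference passed for 26. TOP2A fell in both, with changes of -1.72 in MDA-MB-231 and -3.10 in T47D. XBP1 fell by 3.85 in MDA-MB-231 and by 5.15 in T47D, on the log2 scale, a difference of 1.30 (SE 0.25, adjusted p = 0.00745).

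**Figure D5:**
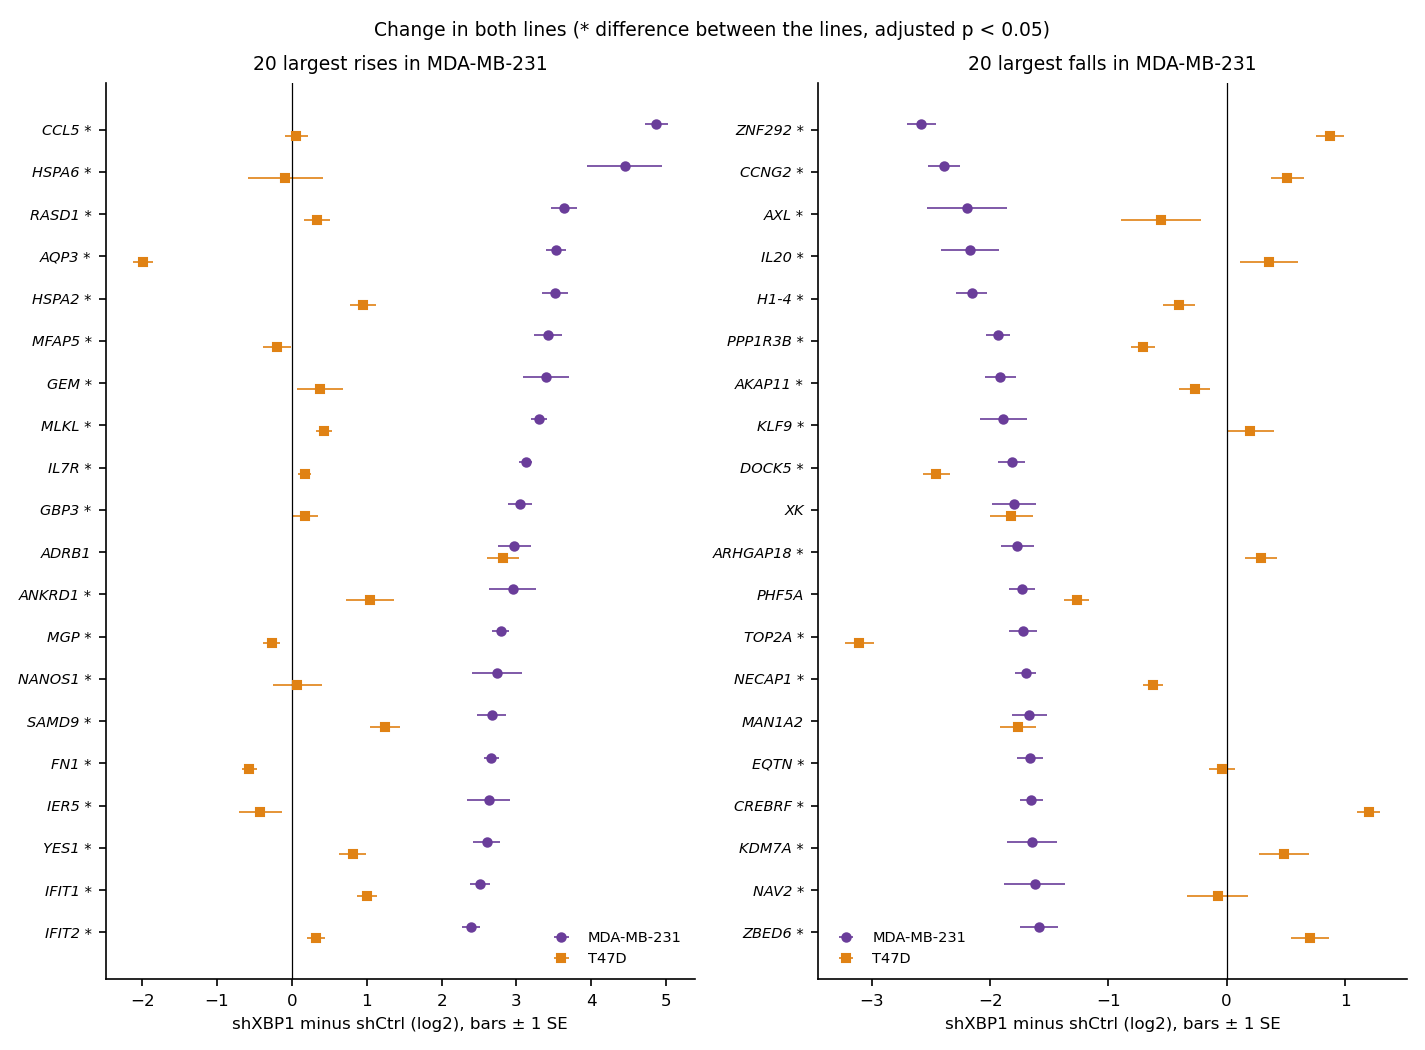
Change (shXBP1 minus shCtrl, log2, horizontal axis, bars ± 1 SE) in MDA-MB-231 and in T47D for the 20 largest rises and the 20 largest falls in MDA-MB-231 after XBP1 (vertical axis, 1 gene per row), with an asterisk where the difference between the lines passed. CCL5 and HSPA6 lie far to the right in MDA-MB-231 and near 0 in T47D, AQP3 and FN1 lie on opposite sides of 0, and ADRB1, XK and MAN1A2 nearly coincide.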

How the data were processed

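RNA was measured on 8 one-colour Affymetrix arrays with 54675 probe sets, of which the 4 MDA-MB-231 arrays are described and the 4 T47D arrays serve for comparison. The authors deposited 1 table of log2 values. Per the submitters' processing notes, these were made with RMA and affy 1.30.0, and RMA subtracts background, normalizes by quantiles and summarises probes. The labels do not say which arrays RMA took together. RMA compresses folds at dim levels and the values carry no detection calls.

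The deposited log2 values were used unchanged. Probe sets were named through the supplied annotation table (42898 listed, 1801 with several symbols and left out, 41091 used, 11721 unnamed, 62 controls). Each of 19775 genes was represented by its brightest single-symbol probe set over the 8 arrays, with no filter on dim genes. In R 4.3.3, limma 3.58.1 (lmFit, eBayes) fitted the 4 group means together, with two-sided tests, Benjamini-Hochberg adjustment over all genes and a threshold of 0.05. The number of arrays limits the precision. The median SE was 0.119 for a change and 0.168 for a difference between the lines. With 2 arrays on each side, the smallest two-sided exact permutation p is 0.333. On arrays simulated for the MDA-MB-231 comparison with 19775 genes, 26.9%, 80.6% and 95.5% of planted log2 changes of 0.5, 1 and 2 were recovered. False calls made up 3.57% of the calls. Only 67, 67 and 66 genes carried these sizes, a far smaller share than the 17.2% called in the data. The rates describe that simulation and need not hold for the real comparison.

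The members and gene lists were chosen with earlier results of these data known. Genes were named by rule: XBP1, the 20 largest rises and falls, up to 4 each way per list, a list always given (HSPA5, DDIT3, PDK1, CCL5 and others) and the 8 largest differences each way between the lines. The 20 largest each way were taken only from called genes whose shXBP1 and shCtrl arrays did not overlap. Genes named beyond the rule were chosen after their values were seen. Alternatives were each probe set alone, the mean over probe sets, a dim filter, quantile normalization, a trended and robust variance, the MDA-MB-231 arrays alone, a replicate block and leaving out each array. Same-numbered arrays of different groups did not deviate together (correlations of -0.069 to 0.038), so the numbers were not used as pairs. Promoters came from RefSeq, build GRCh38.p14, for 15384 of the genes tested.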

Additional observations from a re-analysis of the deposited data

Results flagged for a closer look

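For 18 genes the knockdown change differed between MDA-MB-231 and T47D by the interaction test, chosen as the largest differences each way and the largest pairs of opposite changes. The differences are the MDA-MB-231 change minus the T47D change on the log2 scale. They were positive for AQP3 (5.52), CCL5 (4.81), HSPA6 (4.53), MFAP5 (3.62), CCN5 (3.33), RASD1 (3.30), FN1 (3.23), FOLR1 (3.16), PLAC8 (3.10) and H2BC21 (3.05). They were negative for ZNF292 (-3.46), PSD3 (-3.34), CCNG2 (-2.90), PGM2L1 (-2.88), CREBRF (-2.85), LONRF1 (-2.77), ZBTB34 (-2.73) and COL5A2 (-2.73). No technical measure was tested as a source of these differences.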

How the results depend on the processing

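The number of genes changed in MDA-MB-231 (3410) was 6504 with each probe set tested alone, 1897 with the 4 MDA-MB-231 arrays alone, and 2063 to 2931 when 1 array was left out, 2063 without shCtrl replicate 1 and 2152 without shXBP1 replicate 1. Other settings gave 3267 to 4488. Testing each probe set takes in more probe sets, and the 4 MDA-MB-231 arrays alone are fewer samples. Replicates also differed in spread between the lines. In MDA-MB-231, 43 genes differed by over 2-fold between the shXBP1 replicates and 36 between the shCtrl replicates. In T47D these were 6 and 14 genes. What part each of these played in the counts was not tested. With the replicate number as a block, where the numbers are only numbers, 2416 genes were called and 3938 differed between the lines. The genes differing between the lines (4905) were 8689 with each probe set and 3337 to 4801 without 1 array. At its brightest probe set XBP1 fell throughout, by 3.63 to 4.07 on the log2 scale without 1 array, while its other probe set did not pass. With the mean over probe sets, which includes that dimmer one, XBP1 fell by 1.83.

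Of 248 named genes that were called, 201 kept the call and direction with the mean over probe sets, 186 with the 4 arrays alone, 211 with the block and 191 to 226 without 1 array. Reversals came with the mean over probe sets, for TARS1 (-0.18), PSMD6 (-0.15), PSMA3 (-0.66), IFNAR1 (0.62), EGFR (0.035) and RASA2 (-0.38). The cause was not tested. Dim genes are limited most, with 4.48% called in the dimmest part of the genes.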
